A study of Homo sapiens with 4 samples.

Results

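The SCAN domain zinc finger genes were taken as every gene whose current RefSeq symbol begins with ZSCAN, ZKSCAN or SCAND followed by a digit, reached through the RefSeq accession that the array design gives each probe. Of 41 such symbols in the reference table, 29 had a probe, and they held 46 of the 41000 probes on the array. Of the 12 without a probe, 3 are protein-coding (ZSCAN23, ZSCAN5B and ZSCAN5C), and they were not analysed here. The family consisted of 19 ZSCAN, 7 ZKSCAN and 3 SCAND genes, 27 of them protein-coding and 2 pseudogenes (SCAND2P and ZSCAN12P1). One probe was found for 14 genes, 2 for 13 and 3 for the other 2. The family was chosen by its symbols, but ZSCAN18 was selected as its lead on the values measured here, because it was low in Arp8 KO and Arp8 OE, so that the levels of ZSCAN18 are a description and not a test.

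The SCAN domain is a leucine-rich segment found near the amino terminus of many vertebrate C2H2 zinc finger proteins. It lets these proteins pair with themselves and with each other, while the zinc fingers bind DNA. ZKSCAN proteins carry a KRAB domain as well, and SCAND1 holds a SCAN domain without zinc fingers. In many KRAB zinc finger proteins the KRAB domain recruits the corepressor TRIM28, together with the histone methyltransferase SETDB1 and the HP1 proteins. Whether the ZKSCAN members do so was not examined here.

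The study examined the role of Arp5 and Arp8, actin-related subunits of the INO80 chromatin remodeling complex, in transcription under oxidative stress. The 4 groups of Nalm-6, a cell line of human pre-B acute lymphoblastic leukemia, were each measured on 1 one-colour array: WT cells, Arp5 KO cells in which ARP5 was disrupted, Arp8 KO cells in which ARP8 was disrupted, and cells labelled Arp8 overexpression (Arp8 OE). The growth protocol gives 20 uM heme for 12 h for every group, and WT and Arp8 OE are labelled as heme-treated throughout. For Arp5 KO and Arp8 KO the treatment label reads no heme while the sample title names heme, so that genotype and treatment cannot be told apart for either knockout. Each knockout is a cell line made by gene targeting, and the line from which Arp8 OE was made is not given in the sources used here. The study cites its earlier report that conditional KO of Arp8 was lethal to cells, whereas Arp5 KO cells grew slowly but survived. The part of this difference in the results below was not tested.

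All 4 arrays lay on 1 slide and were scanned together, between 55.8% and 57.4% of probes were well above background, and no spot was saturated. Levels are given as a percent of the 75th percentile of the array's own signals, with the error that the scanner software assigns to the spot. With 1 array per group there was no replicate check, and no p-value is given. The error of a log2 difference combines the software errors of both spots, and replicate spots within an array gave a smaller technical SD of 0.083 for a log2 difference. ACTR5, which encodes Arp5, was 4.73% on the Arp5 KO array against 91.4% in WT, a log2 difference of -4.27 ± 0.29. For ACTR8, which encodes Arp8, the probes differed from WT by -0.53 and -0.68 in Arp8 KO but by 0.02 and -0.01 on the array labelled Arp8 OE, so the latter carried no raised ACTR8 signal. Whether the ACTR8 probes lie in the disrupted part of the gene is not given in the sources used here. All 8 B lineage marker genes examined were above background on every array, with summed levels of 25052% to 33491%, most of it from IGLL1. Of their 12 probes, 2 were over 2-fold below WT in Arp8 KO, CD22 at -2.58 and VPREB1 at -1.26, beside 4.35% of all tested probes. In Arp8 KO, 8 of the 12 lay below WT, CD79A at -0.86 among them. The other 4 lay above it, including the RAG1 probes at 0.98 and 0.79. The other groups gave CD22 differences of -0.73 (Arp8 OE) and -0.89 (Arp5 KO). In Arp8 OE, 1 RAG1 probe was over 2-fold above WT, 2.15-fold, beside 2.96% of all tested probes. The part of these lineage markers in the results below was not tested. Between 1 and 3 of 9 marker genes of other cell types were above background, with summed levels of 23.0% to 29.3%.

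The transcription start windows of ZSCAN18, of ZSCAN9 and of ZNF256, a gene near ZSCAN18, are shown because the results on the Arp8 arrays turn on these genes. Each window runs from 250 bases before to 50 bases after an annotated start, from RefSeq on GRCh38.p14, 5′ to 3′ on the strand of the gene. Capitals mark the GC box letters GGGCGG on either strand.
ZSCAN18, chr19:58118355-58118654, minus strand: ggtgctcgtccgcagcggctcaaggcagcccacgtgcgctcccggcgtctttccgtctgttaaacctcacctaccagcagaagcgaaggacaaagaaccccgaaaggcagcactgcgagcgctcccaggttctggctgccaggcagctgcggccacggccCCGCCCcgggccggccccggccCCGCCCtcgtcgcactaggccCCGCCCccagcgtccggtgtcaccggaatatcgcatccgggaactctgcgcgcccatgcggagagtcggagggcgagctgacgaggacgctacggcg
ZSCAN18, chr19:58098182-58098481, minus strand: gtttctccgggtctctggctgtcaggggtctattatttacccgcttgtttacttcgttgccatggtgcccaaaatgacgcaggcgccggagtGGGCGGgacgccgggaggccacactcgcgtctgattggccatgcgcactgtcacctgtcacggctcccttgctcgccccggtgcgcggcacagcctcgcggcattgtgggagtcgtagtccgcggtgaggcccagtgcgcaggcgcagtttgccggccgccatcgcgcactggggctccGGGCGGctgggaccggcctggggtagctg
ZSCAN9, chr6:28224990-28225289, plus strand: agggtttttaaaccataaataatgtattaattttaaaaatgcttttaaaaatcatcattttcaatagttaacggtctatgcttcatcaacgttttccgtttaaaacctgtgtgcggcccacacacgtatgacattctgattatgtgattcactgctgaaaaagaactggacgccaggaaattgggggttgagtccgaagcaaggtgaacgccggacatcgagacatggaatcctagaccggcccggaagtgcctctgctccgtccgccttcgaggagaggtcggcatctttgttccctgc
ZNF256, chr19:57947657-57947956, minus strand: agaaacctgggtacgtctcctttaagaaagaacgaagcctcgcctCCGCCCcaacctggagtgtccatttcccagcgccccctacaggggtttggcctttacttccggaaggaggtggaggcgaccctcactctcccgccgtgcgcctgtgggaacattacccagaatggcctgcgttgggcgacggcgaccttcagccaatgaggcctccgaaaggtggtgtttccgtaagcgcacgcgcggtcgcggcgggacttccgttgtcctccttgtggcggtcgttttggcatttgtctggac

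ZSCAN18 has 2 annotated start windows, with 36 and 31 CG dinucleotides, and 87.3% and 79.3% of the 35116 windows of all genes held fewer. The first contained 3 GC boxes and the second 2. The first window of ZSCAN9 held 16 CG dinucleotides (52.5% of windows held fewer) and no GC box, and that of ZNF256 held 26 (69.9% held fewer) with 1 GC box. Across the family, 24 genes matched 40 windows, of which 23 (57.5%) held a GC box against 45.0% of all windows, and the median was 21 CG dinucleotides against 14. The core letters of the antioxidant response element, TGACNNNGC, the class of site used by stress-responsive CNC and Maf factors, were found on either strand in 6 of the 40 windows (15%) and in 13.3% of all windows, the second ZSCAN18 window being among the 6. A match of letters is a description of the window and not evidence of binding.

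ZSCAN18, a SCAN and zinc finger protein, had the largest differences from WT of the family on both Arp8 arrays. Its probe A_23_P55682 read 148% ± 14.8 in WT, 6.21% ± 0.889 in Arp8 KO, 10.9% ± 1.35 in Arp8 OE and 90.6% ± 9.09 in Arp5 KO, all well above background. The WT and Arp5 KO arrays were thus high and the Arp8 arrays low, and ZSCAN18 was chosen for its low values on the Arp8 arrays. Arp8 KO was 23.8-fold below WT (log2 difference -4.58 ± 0.25), Arp8 OE was 13.6-fold below it (-3.77 ± 0.23) and Arp5 KO was 1.63-fold below it (-0.71 ± 0.20). Between the low arrays, Arp8 KO was below Arp8 OE by a log2 difference of -0.81 ± 0.27. Arp8 KO against Arp5 KO leaves out the WT array but uses the Arp8 KO values on which ZSCAN18 was chosen. It gave -3.87 ± 0.25, 14.6-fold lower. Fewer cells with ZSCAN18 RNA and less RNA per cell cannot be told apart in these bulk samples.

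The second ZSCAN18 probe, A_24_P39919, ran the same way. It read 11.5% ± 1.34 in WT and 7.39% ± 0.985 in Arp5 KO, and it was not well above background in Arp8 KO (1.18%) or Arp8 OE (0.782%). ZSCAN18 was therefore at least 4.12-fold lower than WT in Arp8 KO by this probe and at least 3.23-fold lower in Arp8 OE, and the measured log2 difference in Arp5 KO was -0.63 ± 0.25. These bounds hold for the software's background correction: with normexp the probe was at -0.90 for Arp8 KO and -0.89 for Arp8 OE, no longer past 2-fold. Of 6 spots adjacent to this one on the slide, 1 was bright on the Arp8 OE array alone, where the probe itself was dim, and none of those adjacent to the first probe was.

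ZSCAN9, another SCAN zinc finger protein, was the other member over 2-fold lower on both Arp8 arrays with no bright spot beside it. Its probe A_23_P122464 read 50.7% ± 5.11 in WT, 21.1% ± 2.18 in Arp8 KO, 24.0% ± 2.50 in Arp8 OE and 81.2% ± 8.14 in Arp5 KO. Arp5 KO was the highest array for this gene and the Arp8 arrays the lowest, which differed from each other by less than their error (-0.19 ± 0.21). Set against WT, the log2 differences were -1.27 ± 0.21 for Arp8 KO, -1.08 ± 0.21 for Arp8 OE and 0.68 ± 0.20 for Arp5 KO. Between the knockouts, Arp8 KO was 3.85-fold below Arp5 KO, a log2 difference of -1.95 ± 0.21. By normexp, an alternative background correction, the ZSCAN9 differences were -0.92 for Arp8 KO and -0.85 for Arp8 OE, no longer past 2-fold.

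ZKSCAN3, a KRAB and SCAN zinc finger protein known as a repressor of autophagy genes, gave 2 probes that disagreed. Probe A_24_P823381 read 29.6% ± 3.05 in WT, 8.48% ± 1.08 in Arp8 KO, 8.49% ± 1.18 in Arp8 OE and 9.73% ± 1.19 in Arp5 KO. Only the WT array was high, and the log2 differences from it were -1.80 ± 0.24 for Arp8 KO, -1.80 ± 0.25 for Arp8 OE and -1.61 ± 0.23 for Arp5 KO. Beside this spot, 2 of 6 adjacent spots were bright on the WT array alone, and their part in the result was not tested. Probe A_23_P168019, with no such spot beside it, read 31.5% in WT, 24.3% in Arp8 KO, 31.8% in Arp8 OE and 29.5% in Arp5 KO, with log2 differences of -0.37 for Arp8 KO, 0.02 for Arp8 OE and -0.10 for Arp5 KO. The first was designed on accession NM_001242894 and the second on NM_024493, both assigned to ZKSCAN3.

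**Figure D1:**
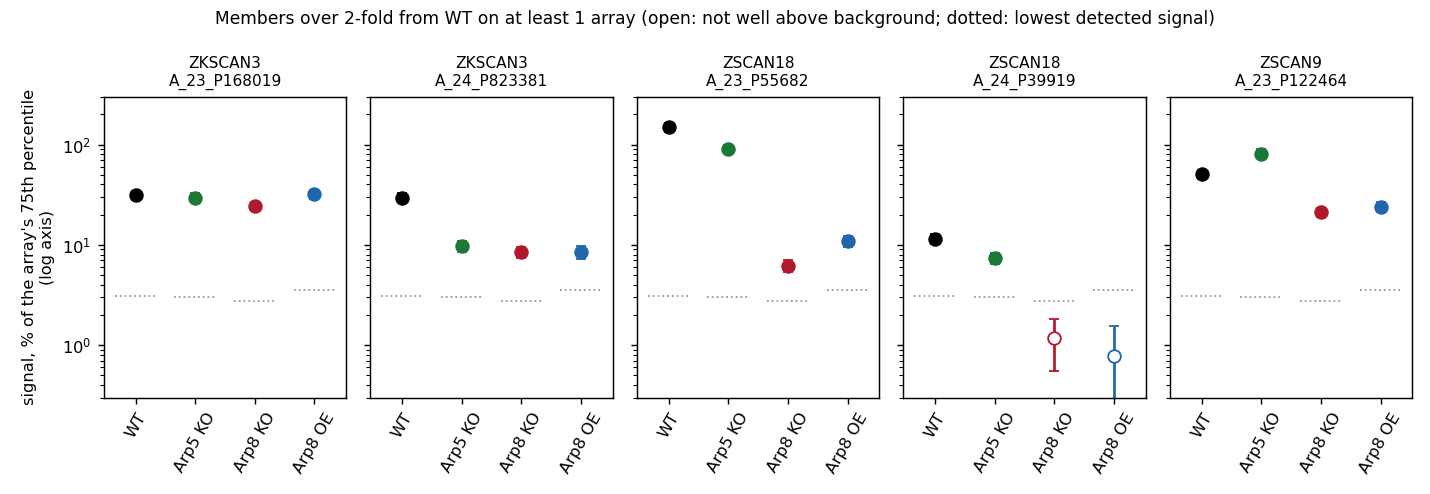
Signal of the ZSCAN18, ZSCAN9 and ZKSCAN3 probes on the 4 arrays, as a percent of the 75th percentile of each array on a log axis, with the error of the scanner software (1 array per group; open points are not well above background, dotted lines mark the lowest detected signal). ZSCAN18 was 148% in WT and 6.21% in Arp8 KO by probe A_23_P55682, and the ZKSCAN3 probes differ from each other.

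These 4 probes of 3 genes were the members over 2-fold from WT on at least 1 array, and none was higher. They made up 10.5% of the 38 member probes tested against WT on at least 1 array, and 11.2% of all 25459 such probes were over 2-fold from WT in the same way. In Arp5 KO against WT, 0 of 37 tested members were over 2-fold higher and 1 was lower (the ZKSCAN3 probe), where 1.69% and 2.01% of all tested probes were. In Arp8 KO, 0 of 37 were higher and 4 lower (both ZSCAN18 probes, ZSCAN9 and the ZKSCAN3 probe), beside 3.37% and 4.35% of all tested probes. In Arp8 OE, 0 of 36 were higher and 4 lower (the probes just named), beside 2.96% and 2.15%. These comparisons share the WT array. Arp8 KO against Arp8 OE held 0 of 36 members past 2-fold in either direction, beside 1.64% higher and 3.78% lower among all tested probes. Arp8 KO against Arp5 KO, which does not use the WT array, held 0 higher and 3 lower of 38 (both ZSCAN18 probes and ZSCAN9), beside 2.53% and 3.18%. The lower members counted in Arp8 KO and Arp8 OE include both probes of ZSCAN18, which was chosen because it was low there. So do those in Arp8 KO against Arp5 KO, which uses the same Arp8 KO values. Those counts are therefore a description and not a test. With normexp correction, which adds an offset of 50, the members past 2-fold from WT were 1 in Arp8 KO, 1 in Arp8 OE and 0 in Arp5 KO, the 1 being ZSCAN18 A_23_P55682.

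The middle of the family lay near that of all probes. The tested members had a median log2 difference of 0.10 in Arp8 KO (all tested probes 0.03), -0.03 in Arp8 OE (all 0) and -0.07 in Arp5 KO (all 0.00). Of the 34 member probes (23 genes) well above background on all 4 arrays, 28 (20 genes, 82.4%) were within 1.5-fold of WT on each of the other 3, as were 76.7% of all 21783 such probes. The steadiest were ZSCAN29 A_23_P100092, ZSCAN21 and ZSCAN31 A_23_P214533. ZSCAN29 read 94.5% in WT, 101% in Arp8 KO, 91.9% in Arp8 OE and 91.7% in Arp5 KO. ZSCAN21, known in the mouse as Zipro1, read 61.5%, 66.1%, 60.6% and 57.1% in the same order. The ZSCAN31 probe read 4.25%, 4.60%, 4.58% and 4.13%, near the lowest detected signal of 2.78% to 3.55%.

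**Figure D2:**
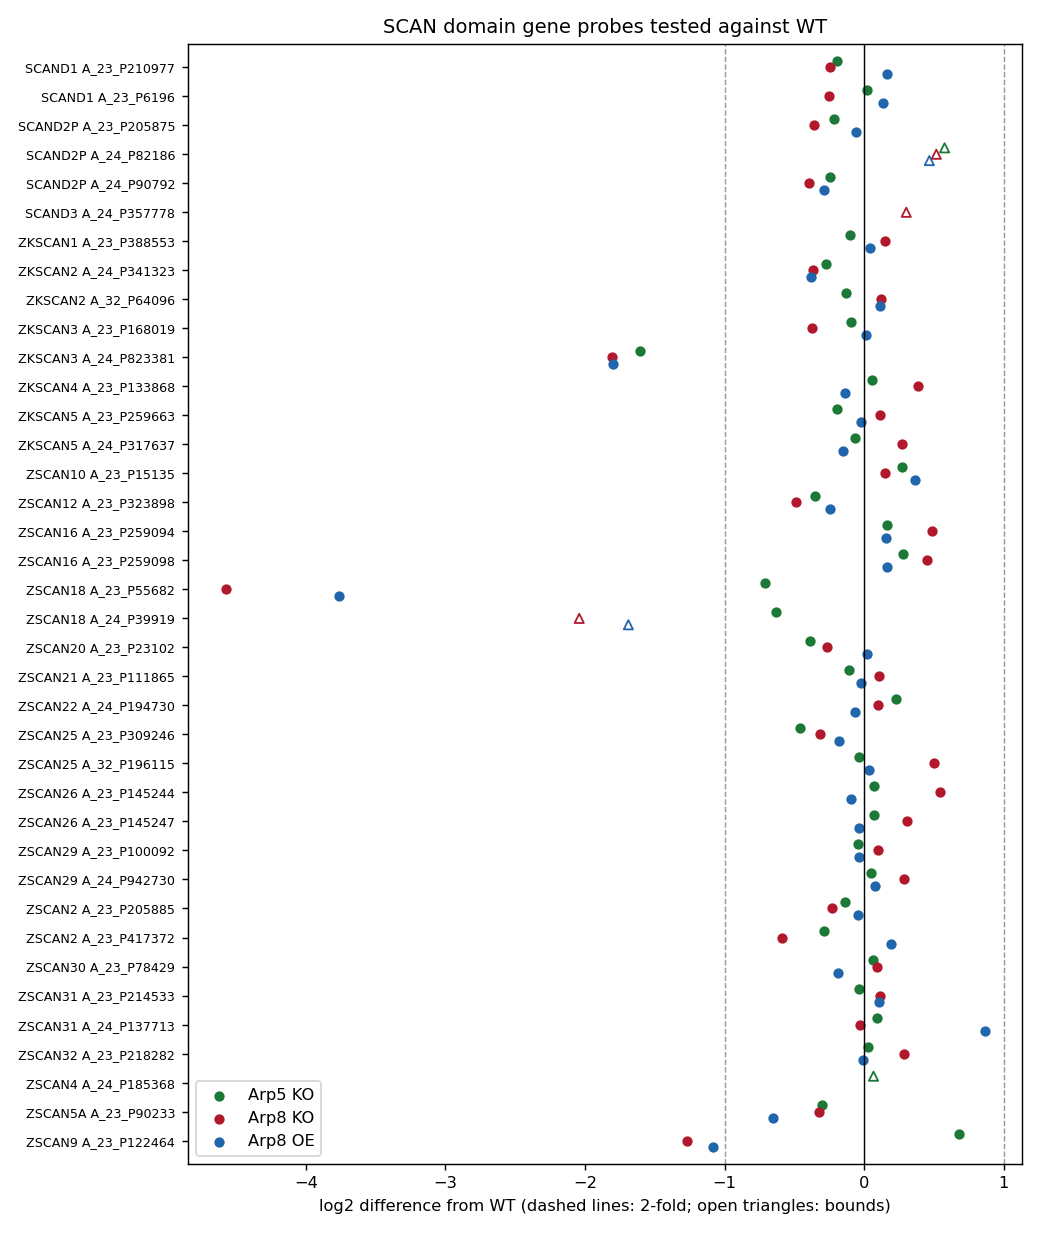
Log2 difference from WT of every member probe tested, by array, with dashed lines at 2-fold and open triangles for bounds. Most points lie between the dashed lines, and the ZSCAN18, ZSCAN9 and ZKSCAN3 A_24_P823381 probes lie below them.

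Smaller differences were read against the software error, as a description. Among members above background on both arrays, 8 of 34 differed from WT by more than 2 errors in Arp8 KO (23.5%, against 28.8% of all such probes), 5 of 34 in Arp8 OE (14.7%, against 18.7%) and 5 of 35 in Arp5 KO (14.3%, against 9.95%). The 4 higher ones in Arp8 KO were both ZSCAN16 probes and 1 probe each of ZSCAN26 and ZSCAN25. ZSCAN16 read 187% in WT, 262% in Arp8 KO, 208% in Arp8 OE and 209% in Arp5 KO by probe A_23_P259094, which put Arp8 KO at 0.49 ± 0.20 above WT on the log2 scale, and its other probe gave 0.45 ± 0.21. ZSCAN26 stood at 0.54 ± 0.22 and 0.31 ± 0.21 in Arp8 KO. The probes of ZSCAN25 went opposite ways in Arp8 KO, at 0.50 ± 0.21 and -0.31 ± 0.21, and the second of these was -0.46 ± 0.21 in Arp5 KO.

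ZSCAN2 was the remaining lower member in Arp8 KO. Probe A_23_P417372 read 136% in WT, 90.8% in Arp8 KO, 156% in Arp8 OE and 112% in Arp5 KO, a log2 difference of -0.59 ± 0.20 in Arp8 KO, while its second probe gave -0.23 ± 0.29. ZSCAN5A was lowest in Arp8 OE, at 120% in WT, 95.5% in Arp8 KO, 76.0% in Arp8 OE and 97.1% in Arp5 KO, the Arp8 OE value a log2 difference of -0.65 ± 0.20. ZSCAN31 A_24_P137713 was the member with the largest positive measured difference, reading 7.60% in WT, 7.46% in Arp8 KO, 13.8% in Arp8 OE and 8.08% in Arp5 KO. That difference of 0.86 ± 0.25 in Arp8 OE was not seen with its second probe, at 0.11 ± 0.40. ZSCAN10, known as a pluripotency factor, read 509% in WT, 566% in Arp8 KO, 654% in Arp8 OE and 615% in Arp5 KO, with log2 differences from WT of 0.15, 0.36 and 0.27 in the order of these arrays.

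The remaining KRAB-bearing members above background on all arrays, ZKSCAN1, ZKSCAN2, ZKSCAN4 and ZKSCAN5, had log2 differences from WT between -0.38 and 0.39. The highest of these was ZKSCAN4 in Arp8 KO and the lowest was a ZKSCAN2 probe in Arp8 OE. SCAND1, the member without zinc fingers, read 308% in WT, 260% in Arp8 KO, 344% in Arp8 OE and 269% in Arp5 KO by probe A_23_P210977, and its probes differed from WT by -0.24 and -0.25 in Arp8 KO. The pseudogene SCAND2P had 3 probes, of which A_23_P205875 and A_24_P90792 lay at -0.36 and -0.40 in Arp8 KO. The third, A_24_P82186, was not well above background in WT, at 3.01% beside a lowest detected signal of 3.11%. It was at least 1.43-fold higher in Arp8 KO, 1.38-fold in Arp8 OE and 1.49-fold in Arp5 KO. ZSCAN12, ZSCAN20, ZSCAN22, ZSCAN30 and ZSCAN32 were within 1.5-fold of WT on every array, the farthest being ZSCAN12 in Arp8 KO at -0.49 ± 0.30.

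The other 6 genes lacked a probe above background on all arrays. ZKSCAN7, ZKSCAN8, ZSCAN1 and the pseudogene ZSCAN12P1 had none above background on any array. ZSCAN4, known from the early embryo and telomere maintenance in embryonic stem cells, was above background on the Arp5 KO array alone with 1 of its probes, at 3.25% beside a lowest detected signal of 2.996%, and 1 adjacent spot was bright on the same array alone. SCAND3 was above background with 1 of 3 probes, in Arp8 KO alone, at 3.83%, which gave at least 1.23-fold over WT. Beside the whole family, 9 of 46 probes (19.6%) lay next to a spot bright on 1 array alone, as did 12.7% of all probes.

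The SCAN domain also occurs in MZF1, PEG3, PGBD1 and many proteins named ZNF. Of 26 such genes with 39 probes, none of the 27 or 28 tested probes was past 2-fold in any of the 5 comparisons. Among all tested probes, 3.70% to 7.71% were. Their median log2 differences were 0.06 for Arp8 KO, -0.01 for Arp8 OE and 0.03 for Arp5 KO against WT. The largest were an MZF1 probe, for a myeloid zinc finger protein, at 0.67 for Arp8 KO and 0.47 for Arp8 OE, 1 of 4 ZNF24 probes at -0.61 for Arp8 OE, 1 of 2 ZNF446 probes at -0.67 in Arp8 KO (the other at 0.03), and ZNF274 at -0.66 in Arp8 KO. The other 3 ZNF24 probes lay between -0.05 and 0.27 from WT on every array.

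Of the KRAB corepressor genes (TRIM28, SETDB1, ATF7IP, CBX1, CBX3 and CBX5), 1 of 10 tested probes was past 2-fold in Arp8 KO, and none of 10 was in Arp5 KO or of 9 in Arp8 OE. Among all tested probes, 7.71%, 3.70% and 5.11% were past 2-fold in these comparisons. The 1 probe was ATF7IP A_23_P112950, for a partner protein of SETDB1, which read 252% in WT, 114% in Arp8 KO, 226% in Arp8 OE and 207% in Arp5 KO, a log2 difference of -1.14 in Arp8 KO. The second ATF7IP probe was at -0.69. TRIM28 read 1727% in WT, 1861% in Arp8 KO, 1643% in Arp8 OE and 1728% in Arp5 KO. The SETDB1 probes were 0.41 and 0.40 above WT in Arp8 KO, and the CBX5 probes ranged from -0.93 to 0.22 there.

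**Figure D3:**
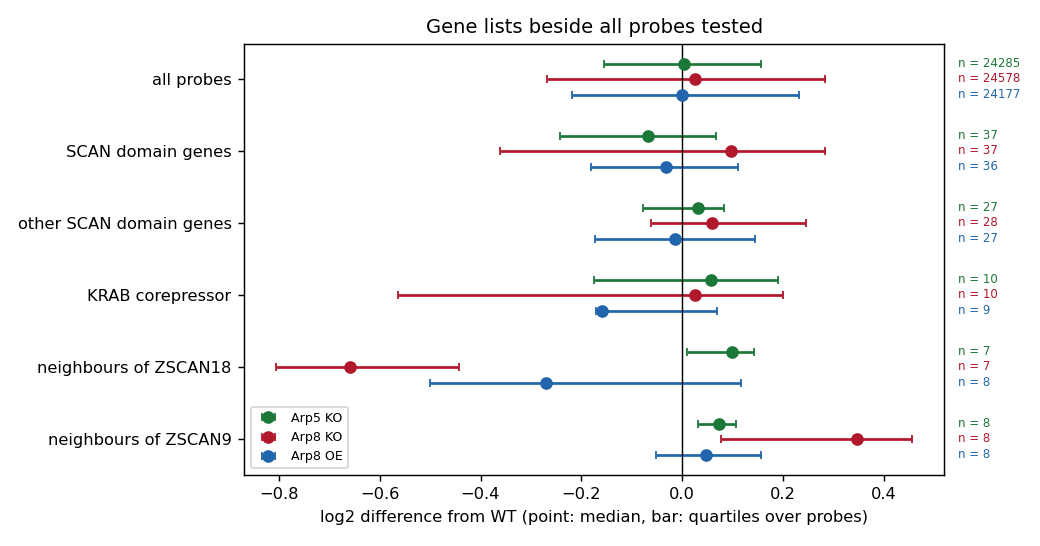
Median (point) and quartiles (bar) over probes of the log2 difference from WT for all tested probes, the SCAN domain genes, and the gene lists set beside them, with the number of probes tested at the right. The SCAN domain genes have medians of 0.10 (Arp8 KO), -0.03 (Arp8 OE) and -0.07 (Arp5 KO), and the genes next to ZSCAN18 have the lowest median, -0.66 in Arp8 KO.

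ZSCAN18 lies on chromosome 19 among other zinc finger genes. In map order, the 5 nearest coding genes on each side were ZNF256, C19orf18, ZNF606, ZSCAN1 and ZNF135 before it and ZNF329, ZNF274, ZNF544, ZNF8 and ERVK3-1 after it. A probe was matched to 9 of these genes. In Arp8 KO, all 7 tested neighbour probes were below WT, as were 11569 of all 24578 tested probes. Their median was -0.66 (all tested probes 0.03), and 1 was over 2-fold lower, beside 4.35% of all. The 7 came from ZNF256, ZNF274, ZNF544 and ZNF8 only, ZNF544 and ZNF8 with more than 1 probe each. The ZNF8 probes were at -0.39 ± 0.20 and -0.06 ± 0.26. In Arp8 OE, 5 of 8 were below WT (12082 of 24177 for all probes), with a median of -0.27. Of these 8, 1 was past 2-fold in each direction, beside 2.96% higher and 2.15% lower of all. In Arp5 KO, 2 of 7 were below WT (11967 of 24285 for all probes), with a median of 0.10.

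ZNF256, a KRAB zinc finger gene, was the neighbour over 2-fold below WT in Arp8 KO, and also in Arp8 OE. It read 64.7% ± 6.51 in WT and 36.0% ± 3.66 in Arp5 KO, and was not well above background in Arp8 KO (0.603%) or Arp8 OE (0.756%). Relative to WT it was 1.80-fold lower in Arp5 KO, at least 18.2-fold lower in Arp8 OE and 23.2-fold lower or more in Arp8 KO. The ZNF256 bounds hold for the software's background correction and its lowest detected signal, and no normexp value is given here for them. No spot adjacent to the ZNF256 probe was bright on 1 array alone. The 3 ZNF544 probes stood -0.49, -0.68 and -0.93 from WT in Arp8 KO, and -0.42, 0.08 and -0.74 from it on the Arp8 OE array. ZNF274, known to bring SETDB1 to zinc finger gene clusters, read 25.2% in WT, 15.9% in Arp8 KO, 19.4% in Arp8 OE and 24.99% in Arp5 KO, with 2 adjacent spots bright on the WT array alone. C19orf18 went the other way and was above background in Arp8 OE alone, at 8.49%, at least 2.73-fold over WT, with 1 adjacent spot bright on that array alone.

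ZSCAN9 lies on chromosome 6, where 10 members with 16 probes are found. Its neighbours were examined after its values had been seen. Of 8 neighbour probes tested, none was past 2-fold from WT in Arp5 KO, Arp8 KO or Arp8 OE, beside 3.70%, 7.71% and 5.11% of all tested probes. The medians of the 8 were 0.07, 0.35 and 0.05. ZKSCAN4, next to ZSCAN9 in map order, was at 0.06, 0.39 and -0.14, and the nearby ZSCAN16 and ZSCAN26 had the higher values in Arp8 KO given above. The 8 probes belong to the members ZSCAN16, ZKSCAN4, ZSCAN26 and ZSCAN31 and to ZNF165, of the other SCAN domain genes. All were already counted above, so that their lack of a 2-fold difference is not a separate result. The difference between the neighbourhoods of ZSCAN18 and ZSCAN9 was not tested.

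**Figure D4:**
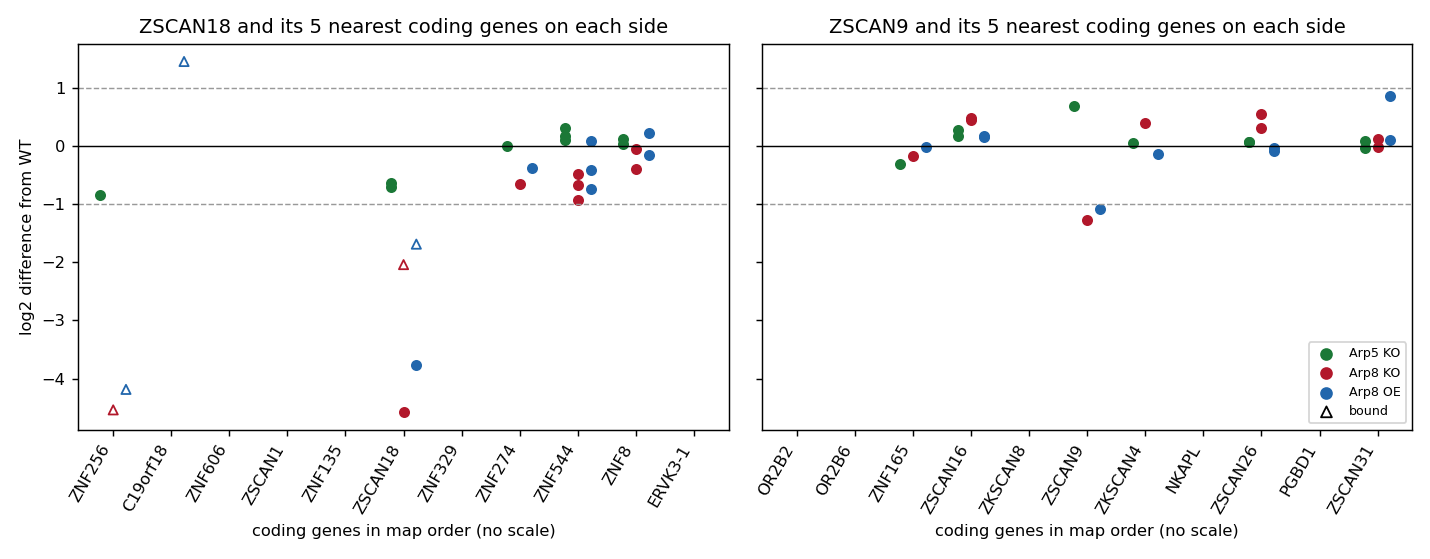
Log2 difference from WT of every tested probe of ZSCAN18 (left) and ZSCAN9 (right) and of the 5 coding genes on each side, in map order and not to scale, with open triangles for bounds. In Arp8 KO the probes around ZSCAN18 are all below 0, down to ZNF256 at the far side, while those around ZSCAN9 lie between -0.17 and 0.54.

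The genes whose pattern was most like that of ZSCAN18 were found by the Euclidean distance of their log2 differences from WT in the 3 other groups, over 17081 named probes above background in WT and Arp5 KO. They were MBNL2, a splicing regulator, at a distance of 0.44, ZNF256 at 0.45, ANKS6 at 0.61, ZNF845, a KRAB zinc finger gene, at 0.75, and SMCO4 at 0.90. The levels of these genes follow from that search, so that they describe the match and are not a test. MBNL2 read 64.1% in WT, 43.7% in Arp5 KO and was not well above background in Arp8 KO or Arp8 OE. ANKS6 read 65.3% and 54.0% and was likewise not well above background on the Arp8 arrays. ZNF845 read 40.6% in WT and 24.7% in Arp5 KO and was not well above background on the Arp8 arrays either. SMCO4 was measured on every array, at 206% in WT, 16.1% in Arp8 KO, 15.7% in Arp8 OE and 130% in Arp5 KO. For MBNL2, ZNF256, ANKS6 and ZNF845 the differences on the Arp8 arrays are bounds, so that their order by distance depends on the lowest detected signal.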

How the data were processed

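The 4 one-colour Agilent arrays hold the spot intensity that the authors deposited as scanner output of Feature Extraction 10.10.1.1, background-subtracted by that software, and the intensity value table deposited beside it is the same signal multiplied by a constant on each array. The processed signal was taken on a log2 scale relative to the 75th percentile of each array, computed here from the deposited values. Control spots and outlier spots were left out, replicate spots were averaged, and a probe was above background where at least 50% of its spots were. A probe was tested where it was above background on at least 1 of both arrays compared, and the other side was then set to its measured value or the lowest detected signal of that array, whichever was larger, which gives a bound. Probes were named through RefSeq accessions in a table of assembly GRCh38.p14, which named 27210 of 41000 probes. The array design uses another build, so chromosomes, gene order and start windows came from GRCh38.p14, and the genome coordinates of the design were not used.

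Groups came from the genotype labels, and 5 comparisons were made with a 2-fold threshold and no test, as each group had 1 array. The members and lists were chosen with earlier results of these data known. All family genes were accounted for, and the text names the members past 2-fold from WT, the 3 steadiest, the 5 nearest in pattern to ZSCAN18 and members of the fixed lists; members beyond 2 errors and the neighbours of ZSCAN9 were added after their values were seen. An adjacent spot counted as bright where its signal on 1 array exceeded that on each of the 3 others by over 2-fold. The 10 alternatives covered scaling, background correction (normexp, offset 50), the source of the values, dim probes, gene means, the threshold and adjacent spots. Python 3.11.15, pandas 2.3.3, R 4.3.3 and limma 3.58.1 were used. The scaling, averaging and difference steps were tested on simulated data, with changes only in bright probes and so none that gave a bound. One gene of the B lineage marker list is not reported here. The number of arrays limits the precision.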

Additional observations from a re-analysis of the deposited data

How the results depend on the processing

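Cyclic loess, quantile normalization, scaling to the median, the deposited value table and the restriction to probes above background on both arrays kept every count of members past 2-fold within 1.5 times and moved no median beyond the replicate-spot spread. With normexp correction the members past 2-fold from WT numbered 1 in Arp8 KO, 1 in Arp8 OE and 0 in Arp5 KO. ZSCAN18 A_23_P55682 was then at -3.15 and -2.71 from WT in Arp8 KO and Arp8 OE, its second probe at -0.90 in Arp8 KO, and ZKSCAN3 A_24_P823381 at -0.96 for Arp8 KO, -0.93 for Arp8 OE and -0.87 for Arp5 KO. Without filter and floor the count was 3 in Arp5 KO, 1 in Arp8 KO against Arp8 OE and 6 in Arp8 KO against Arp5 KO, and the member median in Arp8 KO against WT was -0.032. That setting moved the median of all probes by -0.10 in Arp8 KO, 0.11 in Arp8 OE and -0.17 in Arp8 KO against Arp8 OE. As means over the probes of a gene, 0 genes were past 2-fold in Arp5 KO and 2 in Arp8 OE. At 4-fold, the counts were 0 in Arp5 KO, 2 in Arp8 KO, 1 in Arp8 OE and 1 in Arp8 KO against Arp5 KO. Without probes beside a spot bright on 1 array alone, they were 2 in Arp8 KO, 2 in Arp8 OE and 0 in Arp5 KO, since the removed probes included the ZKSCAN3 probe and the second ZSCAN18 probe. The causes of these shifts were not tested, apart from the fewer probes or the higher threshold that a setting imposes. No alternative changed the sign of a named member that was past 2-fold. No paired analysis was possible because each group holds 1 array. Signal near background limits the dim probes, whose differences are bounds, and with 1 array per genotype the spread between cultures is not known.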
